A study of Homo sapiens with 12 samples.

Results

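The 52 genes described here form the core of the cell division cycle: cyclins and cyclin-dependent kinases (CDKs), their inhibitors, the machinery that licenses and copies DNA, the transcription factors that drive it, and the kinases and motors of mitosis. They were chosen by gene name, and all 52 were found among the 60666 genes of the count table and passed the filter on low counts in every comparison. The cells were HT1376, a human bladder cancer line, as a CRISPR control clone (HT1376 CT, which received a guide against luciferase) and a clone whose FOXP3 gene was targeted in its exon 2 (HT1376 FOXP3 KO). Each line was either left untreated or given IFNγ at 100 ng/mL for 48 hours, with 3 libraries a group numbered 11, 12 and 13. Both lines are single-cell clones that went through the same editing procedure, so a difference between them is a difference between 1 clone and 1 other clone. The comparisons ask whether IFNγ lowered the expression of proliferation genes in each line, and whether the lines differed untreated, under IFNγ and in their response.

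A cell enters the cycle when D-type cyclins with CDK4 or CDK6, then E-type cyclins with CDK2, release the E2F transcription factors from the retinoblastoma protein, and E2F switches on the genes of DNA replication. Later, B-MYB (MYBL2) and FOXM1, with the MuvB complex, switch on the genes of G2 and mitosis. CDK inhibitors of the CIP/KIP family (CDKN1A, CDKN1B) and the INK4 family (CDKN2A, CDKN2B, CDKN2C) hold these kinases back. IFNγ, a cytokine of T cells and natural killer cells, is known to slow the growth of many epithelial cell types.

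From this textbook order, 19 members were placed in G1/S (E-type cyclins, CDC25A, licensing, replication, nucleotide supply and E2F factors). Another 22 were placed in G2/M (MKI67, TOP2A, CDK1, CDC25C, the A and B cyclins, mitotic kinases, checkpoint and spindle genes, FOXM1 and MYBL2). The other 11, which include the D-type cyclins, CDK2, CDK4, CDK6 and the inhibitors, were given no phase. Short sequences known to be used by each program can be read in the promoters, and are shown here as background to this grouping. RefSeq promoters (GRCh38.p14, 250 bases before to 50 bases after the gene start) were at hand for 40 members. The cell cycle genes homology region, TTTGAA on either strand, was present in 15.2% of all 35116 such promoters, in 11 of 17 G2/M members and in 1 of 15 G1/S members. An E2F sequence, searched on both strands as TTTCGCGC, TTTGGCGC, TTTCCCGC, TTTGGCGG or TTTCGCGG, was present in 3.74% of all promoters, in 11 of 15 G1/S members and in 2 of 17 G2/M members. A member counted when any of its listed promoters held a match, whereas the shares of all promoters count each promoter singly. The shares therefore differ in unit, and a member with several promoters had more chances to match. These matches describe letters in a window, matches to different letters can overlap, and whether any factor was bound was not measured. Windows of 30 bases around a match follow, read 5′ to 3′ on the gene's strand, with the matched letters in capitals (TTTGAA in the upper 5, an E2F sequence in the lower 4).
PLK1 (chr16:23678848-23678877, plus strand): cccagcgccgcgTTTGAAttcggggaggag
CCNB2 (chr15:59105105-59105134, plus strand): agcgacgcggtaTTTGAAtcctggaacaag
MKI67 (chr10:128126453-128126482, minus strand): ttagcgccagaaTTTGAAtcttcgttttcg
BUB1B (chr15:40161034-40161063, plus strand): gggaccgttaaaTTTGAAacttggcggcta
CDC20 (chr1:43358904-43358933, plus strand): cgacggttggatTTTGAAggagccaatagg
MCM7 (chr7:100101388-100101417, minus strand): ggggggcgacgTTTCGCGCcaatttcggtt
E2F1 (chr20:33686387-33686416, minus strand): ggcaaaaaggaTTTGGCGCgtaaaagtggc
E2F2 (chr1:23531257-23531286, minus strand): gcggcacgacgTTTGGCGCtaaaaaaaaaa
CDC25A (chr3:48188443-48188472, minus strand): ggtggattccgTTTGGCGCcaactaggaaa
In the 5 TTTGAA windows the motif begins between 23 and 65 bases before the annotated start: 29 bases for PLK1 and CCNB2, 47 for MKI67, 23 for BUB1B and 65 for CDC20. Among the 17 G2/M members, the median log2 fold change with IFNγ in HT1376 CT was -0.536 with TTTGAA and -0.627 without it. Among the 15 G1/S members it was -0.111 with an E2F sequence and -0.268 without. Whether these sequences bear on the response was not tested.

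Libraries held 4490684 to 39270042 counts, and 51 of the 52 members had 10 or more counts in every library (the lowest was CCND2, with 8). The shallowest library, HT1376 CT IFNg replicate 12, shared the lowest correlation within a group with replicate 11 of the same group (r = 0.98, across genes) and gave the smallest share of its counts to the members, 0.598% against 0.676 to 0.95% in the others, so results resting on it are given without it as well. FOXP3 had 0 to 3 counts per library in both lines, which is too few to check the edit from RNA. All 13 genes of an IFNγ response list were higher with IFNγ in both lines (median log2 fold change 3.83 in HT1376 CT and 3.25 in HT1376 FOXP3 KO). Epithelial markers summed to 3821 to 4929 CPM in all libraries. Of the urothelial markers, UPK3A was at 3 counts or fewer in every group, KRT20 in both HT1376 CT groups and UPK2 in HT1376 CT with IFNγ. Values below are CPM, counts scaled to a common library size after TMM normalization over the 12 libraries. Values for replicates 11, 12 and 13 are given in that order, fold changes are log2 with their standard error (SE), and a gene was called when its adjusted p, over all genes tested with edgeR's quasi-likelihood test, was under 0.05. Libraries that share a number deviated together in both lines and conditions, so counts of calls are given both without a block and with a term for the number (the replicate block).

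**Figure D1:**
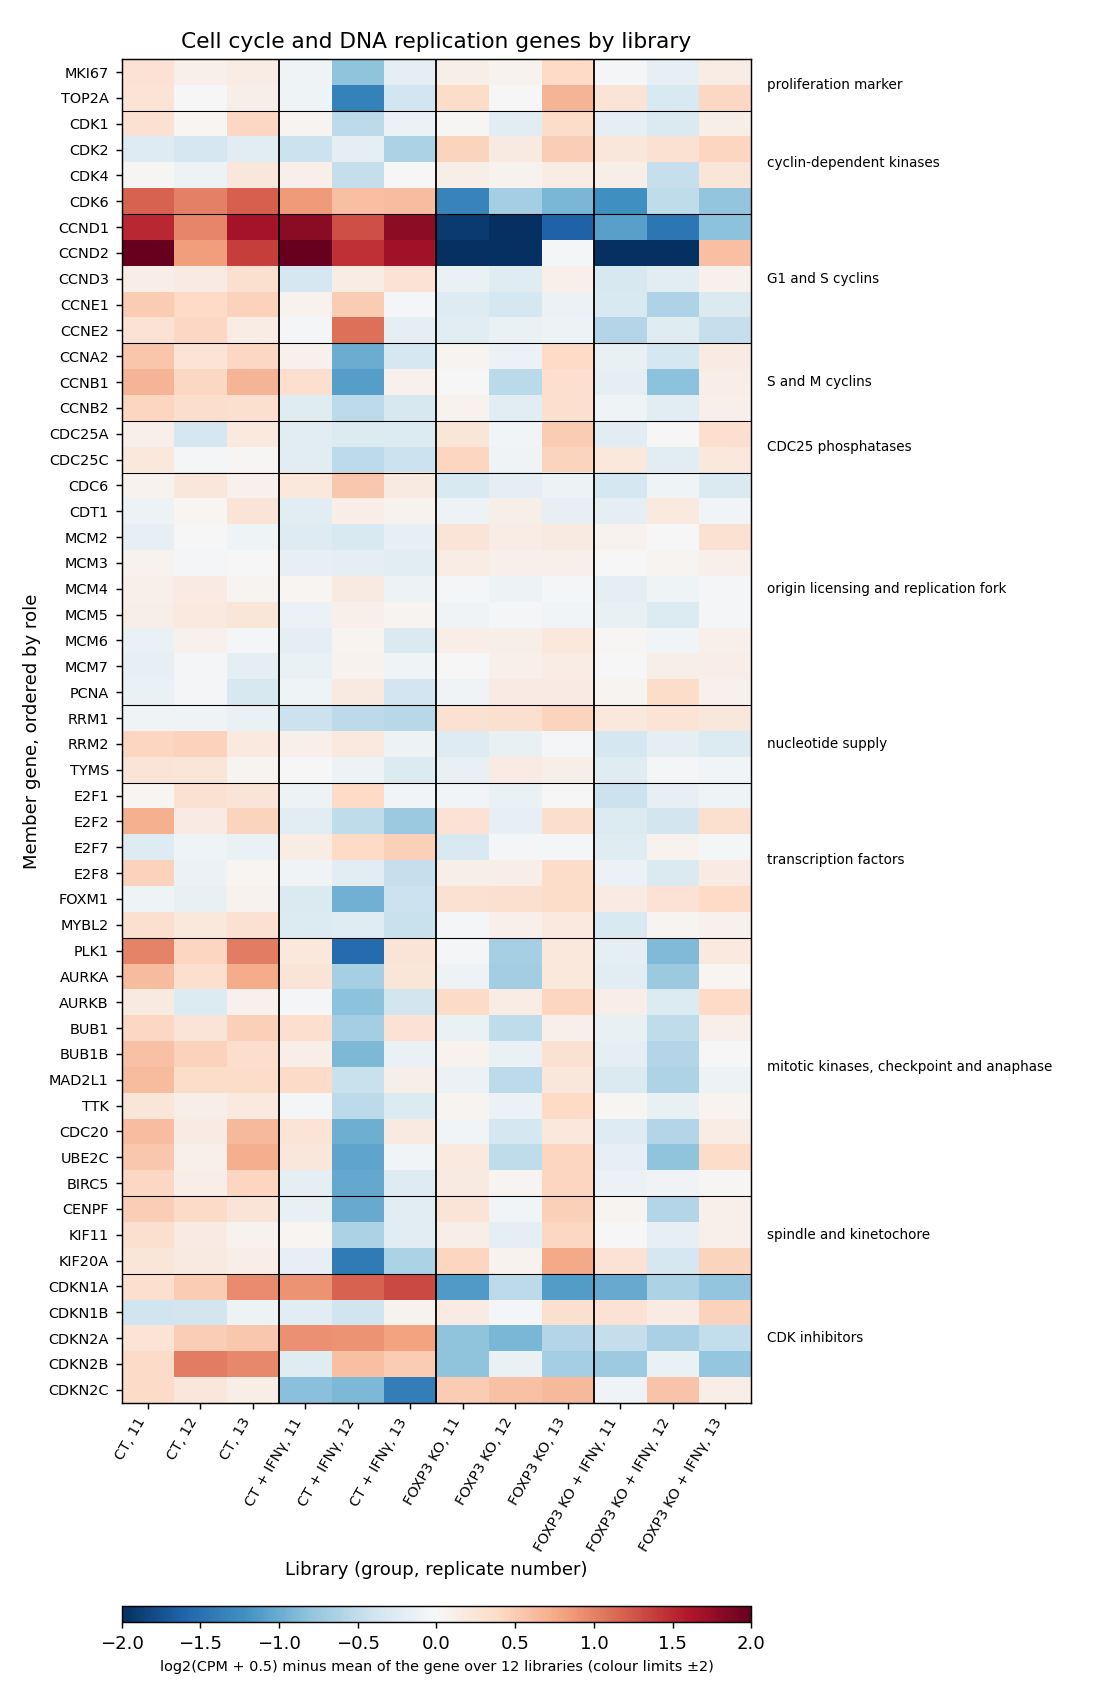
Heat map of the 52 members (rows, ordered by role) in the 12 libraries (columns, by group and replicate number). Colour is log2(CPM + 0.5) minus the gene's mean over all libraries, blue lower and red higher. The CCND1, CDK6 and CDKN1A rows separate the lines, and HT1376 CT IFNg replicate 12 has the lowest level of most mitotic genes, such as PLK1 at 18.2 CPM.

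With IFNγ, genes of the mitotic arm of the cycle fell in HT1376 CT, and none of the 9 members of origin licensing and the replication fork was called. All 22 G2/M members had a negative log2 fold change, with a median of -0.565, beside -0.14 over the 19 G1/S members and -0.02 over all 24416 genes tested. Without a block, 9 members were called (17.3% of 52, where 5.35% of all genes were called, 3.53% higher and 1.82% lower): CDK6, CCNB2, RRM1, E2F2, MYBL2, BIRC5, CENPF and CDKN2C fell and E2F7 rose. With the replicate block, 35 members were called, 30 lower and 5 higher, where 18.6% of all genes were called, 9.88% lower and 8.67% higher. Those 30 held all 22 G2/M members. With bias-adjusted deviance added to the block the count was 34 (16.8% of all genes), and BUB1 was the G2/M member lost (adjusted p = 0.0869). Fewer cycling cells and less RNA of these genes per cell cannot be told apart in bulk RNA. Fibroblast markers summed to 45.4 to 62.9 CPM untreated and 24.5 to 33.9 CPM with IFNγ (1 of 5 called, COL1A1, at -0.725 ± 0.149, adjusted p = 0.0147), and urothelial markers to 764 to 834 and 567 to 759 CPM, and their part in the result was not tested.

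The general markers of proliferation, MKI67 and TOP2A, are themselves counted among the G2/M members. MKI67, which encodes the Ki-67 antigen of cycling cells, stood at 1816, 1587 and 1649.8 CPM untreated and at 1408, 847 and 1310.4 CPM with IFNγ. The groups did not overlap, and the library of replicate 12 was the lowest of the treated ones. Its change of -0.49 ± 0.15 (SE) gave an adjusted p of 0.106 without the block and 0.0013 with the block and bias-adjusted deviance. TOP2A, the topoisomerase that untangles chromosomes before mitosis, was at 729, 599 and 650 CPM untreated and 567, 236 and 459 CPM with IFNγ (-0.63 ± 0.23, adjusted p = 0.17 without and 0.00313 with that block).

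Among the cyclins, CCNB2, a B-type cyclin of mitotic entry, was at 50.6, 47.9 and 46.8 CPM untreated and at 31.6, 25.9 and 29.9 CPM with IFNγ. The groups were well apart and the fall, -0.71 ± 0.12 (adjusted p = 0.00581), was called whichever library was left out. CCNA2 and CCNB1, the cyclins of S phase to mitosis and of mitotic entry, had values of -0.74 ± 0.20 and -0.68 ± 0.26, not called without the block (adjusted p = 0.0619 and 0.199) and called with it. CCNE1 and CCNE2, the E-type cyclins of S phase entry, had adjusted p-values of 0.461 and 0.871, and CCNE2 ranged from 66.0 to 160.4 CPM among the treated libraries, with the highest in replicate 12. Without the libraries numbered 12 the E-type cyclins were at -0.46 ± 0.13 (CCNE1) and -0.32 ± 0.11 (CCNE2, which was at 0.13 with them), beside -0.59 ± 0.14 for CCNA2 and -0.45 ± 0.11 for CCNB1, so CCNE1 was then as low as CCNB1 (adjusted p = 0.102, 0.156, 0.05 and 0.0514). Of the D-type cyclins, CCND1 was at 608, 418 and 675 CPM untreated and 748, 521 and 735 CPM with IFNγ, higher within each number but overlapping between groups. Its log2 fold change of 0.26 ± 0.18 was not called without the block (adjusted p = 0.511) and was called with it (0.00853 with bias-adjusted deviance), and the same held for CCND2 (0.63 ± 0.40, adjusted p = 0.471 and 0.00224).

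Of the kinases, motors and checkpoint genes of mitosis, CENPF, a kinetochore protein, was at 774, 715 and 653 CPM untreated and at 496, 274 and 470 CPM with IFNγ (-0.77 ± 0.18, adjusted p = 0.0277). BIRC5, the survivin subunit of the chromosomal passenger complex, went from 112, 92.3 and 113 CPM to 73.2, 41.1 and 70.3 CPM (-0.75 ± 0.18, adjusted p = 0.0354). Neither gene's groups overlapped. PLK1, the kinase that drives mitotic entry and exit, was at 108, 72.3 and 109.5 CPM untreated and 62.6, 18.2 and 64.1 CPM with IFNγ. Here the treated library of replicate 12 was far below the other 2, and the change of -0.95 ± 0.33 was not called without the block (adjusted p = 0.151) but was called when all libraries numbered 12 were left out (-0.77, adjusted p = 0.00206). The spindle motor KIF20A (-0.80 ± 0.23), the checkpoint kinase BUB1B (-0.68 ± 0.20), the ubiquitin-conjugating enzyme UBE2C (-0.64 ± 0.26) and AURKA (-0.55 ± 0.20) had adjusted p-values of 0.0708, 0.0834, 0.213 and 0.174 without the block, and each was called with it.

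Among genes of DNA replication, none of the 9 licensing and fork members (CDC6, CDT1, MCM2 to MCM7 and PCNA) was called. This held with or without the block in edgeR, and in DESeq2. Without the block none had an unadjusted p under 0.05, where 17.7% of all genes did. Their log2 fold changes ran from -0.19 for MCM3 to 0.21 for CDC6. With the block, MCM3 (-0.19 ± 0.07) and CDC6 (0.20 ± 0.08) passed that unadjusted threshold in edgeR, and the matching share of all genes is not given. With bias-adjusted deviance added, MCM5 passed it as well (-0.17 ± 0.07). MCM2, MCM3 and MCM5 were lower with IFNγ without overlap between groups, whereas the groups of the other licensing and fork members overlapped. PCNA, the sliding clamp of DNA polymerase, was at 250.2, 269 and 220.3 CPM untreated and 257, 310.5 and 209 CPM with IFNγ, so its groups overlapped. MCM2, a subunit of the replicative helicase, was at 107, 120.1 and 113 CPM and then 100.4, 96.7 and 107 CPM (-0.14 ± 0.10, adjusted p = 0.55). Its exons share 23.6% of their bases with an antisense transcript, and the strand setting of the counting is not given in the sources used here. Of the 3 nucleotide supply genes, RRM1, the large subunit of ribonucleotide reductase, fell by 0.38 on the log2 scale (229, 228 and 221 CPM to 179, 168 and 165 CPM, adjusted p = 0.0377). RRM2 and TYMS, at -0.28 ± 0.11 and -0.29 ± 0.12, were called with the block and not without it, and TYMS shares 39.9% of its exon bases with ENOSF1 on the other strand.

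Transcription factors of the cycle moved in opposite directions. MYBL2, the B-MYB activator of mitotic genes, was at 169.7, 157 and 168 CPM untreated and 113, 115 and 99.5 CPM with IFNγ, a fall of 0.58 ± 0.11 (adjusted p = 0.00736). E2F2, an activator E2F, fell by 0.92 ± 0.17 (adjusted p = 0.00848), from 78.0, 53.2 and 64.9 CPM to 40.8, 33.2 and 28.2 CPM. In contrast E2F7, an E2F that represses E2F target genes, rose by 0.53 ± 0.12 (adjusted p = 0.0229), from 97.7, 111 and 107 CPM to 131, 155 and 164 CPM. E2F1, another activator E2F, overlapped between groups (-0.11 ± 0.16, adjusted p = 0.803). E2F8, a relative of E2F7, did not share its rise and was lower within each number with overlapping groups (-0.38 ± 0.17). It was called with the block (adjusted p = 0.0176 with bias-adjusted deviance, 0.277 without the block). FOXM1, the forkhead factor of G2/M genes, was at -0.45 ± 0.16 and was called with the block (adjusted p = 0.0109 with bias-adjusted deviance, 0.153 without the block).

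Of the CDK inhibitors, CDKN2C (p18INK4C) had the lowest log2 fold change of any member in the fit without a block. It was at 21.6, 19.4 and 18 CPM in untreated HT1376 CT and at 9.02, 8.54 and 5.98 CPM with IFNγ, 2.52-fold lower (-1.33 ± 0.20, adjusted p = 0.00212), and was called whichever library was left out. Its exons share 20.4% of their bases with an antisense transcript. CDKN1A (p21) was at 98.7, 112 and 152 CPM untreated and 146, 178 and 196 CPM with IFNγ, higher within each number with overlapping groups (0.54 ± 0.17, adjusted p = 0.0986; 0.000414 with the block and bias-adjusted deviance). CDKN2A, whose products p16INK4A and p14ARF are counted together, went from 37.3, 43.2 and 44.9 CPM to 58.2, 57.3 and 54.2 CPM without overlap (0.45 ± 0.12, adjusted p = 0.058; 0.00734 with that block). CDKN2B was lower within each number with overlapping groups (-0.48 ± 0.24, adjusted p = 0.336; 0.0104 with that block). CDKN1B (p27) did not pass in either fit (0.14 ± 0.15, adjusted p = 0.712 and 0.357).

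The number of calls in HT1376 CT leaned on single libraries. With each of the 6 libraries omitted in turn, CCNB2 and CDKN2C were called in all 6 fits, E2F2 and MYBL2 in 5, E2F7 and BIRC5 in 3, CENPF in 2, CDK6 in 1 and RRM1 in 0 (adjusted p = 0.053 to 0.155). The number of calls was 15 without HT1376 CT IFNg replicate 11 and 2 without HT1376 CT IFNg replicate 13. It was 4 without HT1376 CT replicate 11 and 5 without HT1376 CT replicate 13. The share of all genes called in these fits is not given, so these counts have no background to be read against. Leaving out both libraries numbered 12 gave 10 calls (4.93% of all genes), with all 22 G2/M log2 fold changes still negative and a median of -0.44, while the G1/S median was -0.22 (16 of 19 negative) against -0.14 with them, so the medians of the 2 phases then lay closer together.

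Without the block, edgeR called 0 of 52 members in HT1376 FOXP3 KO (2 had an unadjusted p under 0.05, and DESeq2 called 1, CCND1, where it called 1.42% of all genes), where 0.982% of all 24131 genes tested were called. The median log2 fold change was -0.19 over the 22 G2/M members, 21 of them negative, and -0.09 over the 19 G1/S members, beside -0.005 over all genes. With the block 10 members were called, where 5.53% of all genes were called (3.92% higher and 1.6% lower): CCND1 rose and MKI67, TOP2A, CCNE2, CCNB1, BUB1B, BIRC5, CENPF, KIF20A and CDKN2C fell. Adding bias-adjusted deviance left 6, where 4.26% of all genes were called, namely CCND1 and the falls of MKI67, TOP2A, BUB1B, BIRC5 and CENPF. The exons of CCNE2 share 37.0% of their bases with INTS8 on the other strand.

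MKI67 was at 1608, 1559 and 1954 CPM in untreated HT1376 FOXP3 KO and at 1459, 1325 and 1646 CPM with IFNγ, lower within each number with overlapping groups (-0.19 ± 0.10, adjusted p = 0.999 without the block and 0.0167 with the block and bias-adjusted deviance). CENPF was at 653, 529 and 760.1 CPM and then 569.8, 367 and 590.3 CPM (-0.32 ± 0.18, adjusted p = 0.999 and 0.00148 in the same fits). For CCND1, the D-type cyclin that opens G1, the levels were 56, 47.6 and 68.8 CPM untreated and 100.3, 78.0 and 121 CPM with IFNγ, with every treated library above every untreated one. This was a log2 fold change of 0.82 ± 0.17, 1.77-fold (adjusted p = 0.0761 without the block, 3.26e-07 with the block and bias-adjusted deviance, 0.00247 without the libraries numbered 12, and 0.0193 to 0.372 with 1 library left out, called in 1 of these 6 fits, the one without HT1376 FOXP3 KO IFNg replicate 12). CDKN2C was at 23.5, 24.8 and 26.1 CPM untreated and 15.6, 24.7 and 18 CPM with IFNγ, and the treated library of replicate 12 was as high as the untreated ones.

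**Figure D2:**
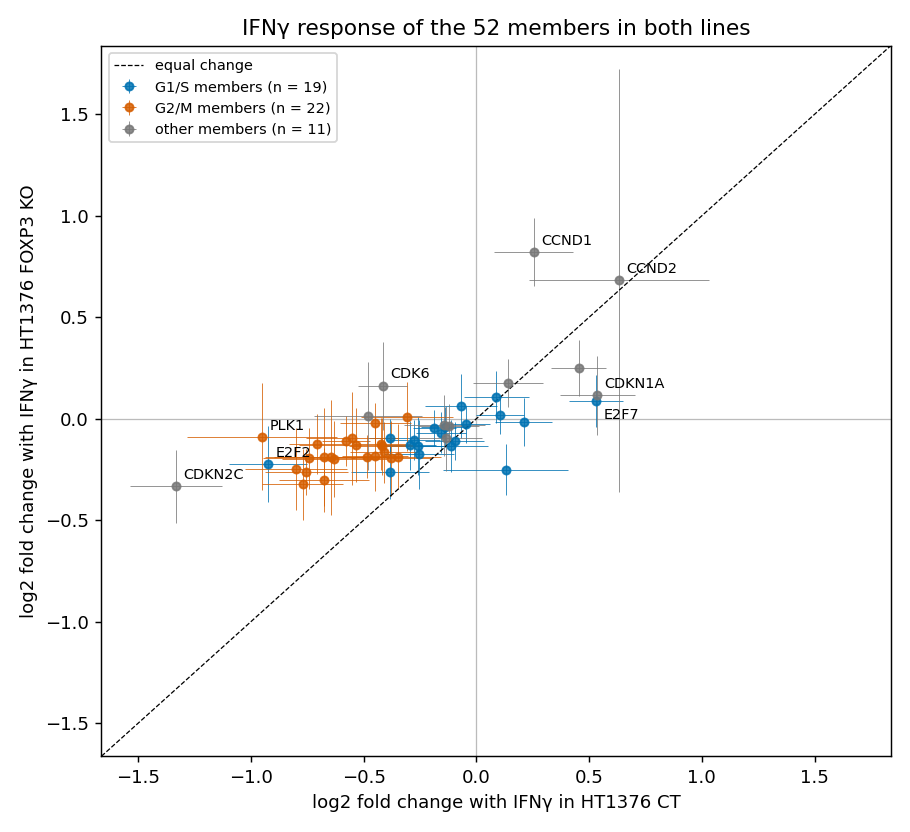
Log2 fold change of each member with IFNγ in HT1376 CT (x axis) and in HT1376 FOXP3 KO (y axis), with SE bars from the fits without a block; the dashed line marks equal change. G2/M members lie left of zero with medians of -0.565 and -0.19, CDKN2C is farthest left at -1.33, and CCND1 is highest at 0.82 on the y axis.

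Ratios within a replicate number, taken directly from CPM, give the 2 phases library by library. They compare the same pairs of libraries as the fits with the block and are not separate evidence. In HT1376 CT all 22 G2/M members were below zero in each of the 3 numbers, with medians of -0.365, -0.97 and -0.49. The G1/S medians were -0.23, 0.02 and -0.27, and in number 12 the G1/S members were split, 9 below and 10 above zero. In HT1376 FOXP3 KO the G2/M medians were -0.18, -0.18 and -0.235, with 22, 20 and 21 members below zero, and the G1/S medians were -0.10, -0.045 and -0.09, with 17, 12 and 14 of 19 below zero. In each number the 2 medians thus lay closer together than in HT1376 CT. Over all 52 members, 35 were lower and 7 higher in each of the 3 numbers in HT1376 CT, and 29 lower and 5 higher in HT1376 FOXP3 KO. The matching shares of all genes are not given, so these counts of members below zero have no background to be read against.

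**Figure D3:**
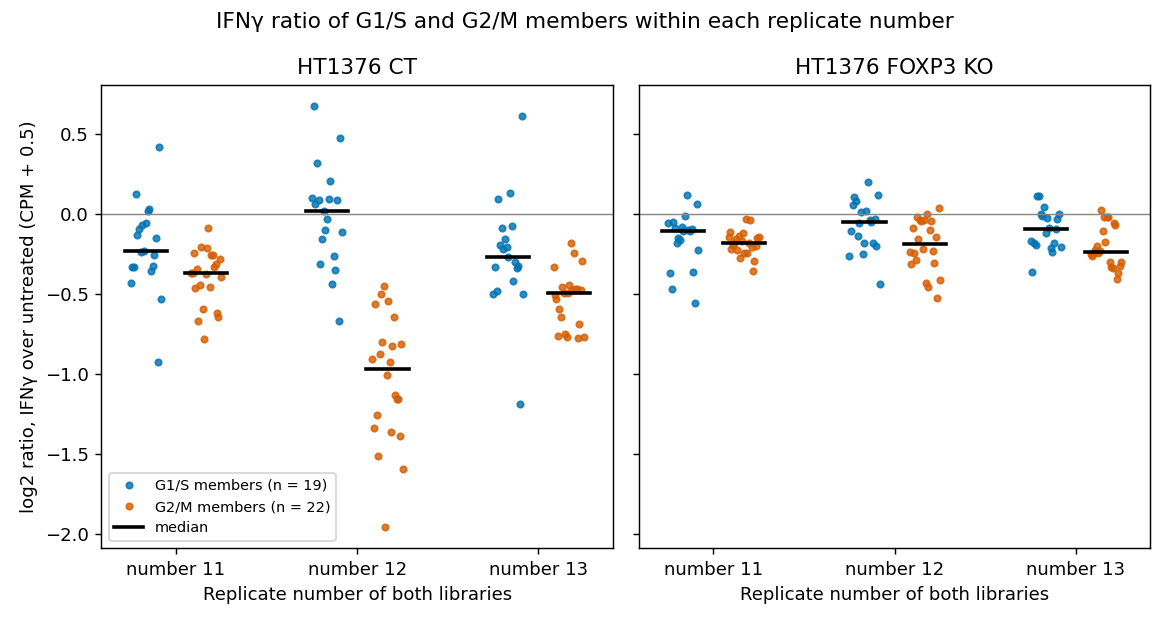
Log2 ratio of IFNγ over untreated (CPM + 0.5) for each G1/S (n = 19) and G2/M (n = 22) member within each replicate number, one panel per line, with medians as bars. The G2/M medians in HT1376 CT are -0.365, -0.97 and -0.49 and those in HT1376 FOXP3 KO lie between -0.18 and -0.235.

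Whether the response differed between the lines was tested by the interaction of line and IFNγ over all 12 libraries, where a positive value means a less negative or more positive response in HT1376 FOXP3 KO. Without a block, edgeR called 0 of 52 members (7 had an unadjusted p under 0.05, and DESeq2 called 0, against 0.543% of all genes), where edgeR called 0.111% of the 27806 genes tested. The median interaction was 0.42 over the 22 G2/M members, all of them positive, and 0.09 over the 19 G1/S members, beside 0.03 over all genes. Without the libraries numbered 12 these were 0.35, 0.19 and 0.09. With the replicate block 3 members were called (CCND1, PLK1 and CDKN2C), where 1.21% of all genes were called, and CCND1 alone remained with bias-adjusted deviance (0.55, adjusted p = 0.0309, where 0.827% of all genes were called). A block within each line, which pairs a treated library only with its own line's untreated one, called 10 members with bias-adjusted deviance, where 3.12% of all genes were called. In that fit CDK6, CCND1, CCNA2, CCNB2, E2F2, MYBL2, PLK1, BIRC5 and CDKN2C had positive interactions and E2F7 a negative one. CDK6 was at 229, 202 and 231 CPM in untreated HT1376 CT and 181, 153 and 155 CPM with IFNγ, but at 39.4, 62.8 and 53.2 CPM and then 42.8, 70.6 and 58.0 CPM in HT1376 FOXP3 KO (interaction 0.58 ± 0.10, adjusted p = 0.00114).

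Between the untreated lines, the 6 members that differed most were genes that open or brake G1, and MKI67 was not called (0.03 ± 0.11, adjusted p = 0.877). CCND1, CCND2 and CDK6, and the inhibitors CDKN1A, CDKN2A and CDKN2B, were all lower in HT1376 FOXP3 KO, each by more than 1 on the log2 scale, and no other member differed by that much. The share of all genes that differed by that much is not given. Genes outside the members differed by more in both directions, such as FOSL1 (-4.015) and FOS (3.613). In all, 20 members were called, 4 higher and 16 lower in HT1376 FOXP3 KO (38.5% of 52), where 32.1% of all 25320 genes tested were called (14% higher and 18.2% lower), so the members' share was near the background. The median log2 fold change over the members was -0.16, beside -0.02 over all genes. The block gave 25 calls, where 36.6% of all genes were called. The calls numbered 12 without HT1376 CT replicate 11 and also 12 without HT1376 FOXP3 KO replicate 11, fits for which no share of all genes is given. CCNE2, CCNB1, AURKA and BUB1 each stayed called in 3 of 6 fits with 1 library omitted, CDC20 and CDKN1B in 2, MAD2L1 in 1 and CDC6 in 0, and the other 12 in all 6. Fibroblast markers were higher in HT1376 FOXP3 KO (4 of 5 higher and 1 lower; summed level 473 to 704 CPM against 45.4 to 62.9 CPM, none at 0), and of the 6 epithelial markers EPCAM (-1.92 ± 0.15) and CDH1 (-0.65 ± 0.12) were lower and KRT7 higher (0.95 ± 0.18). Mitochondrial genes took 4.08 to 5.11% of counts in every HT1376 FOXP3 KO library and 3.1 to 3.63% in every HT1376 CT library, treated or not, and MALAT1, a nuclear RNA, took 4.47 to 5.27% and 2.39 to 3.88%. The part of these differences in the results was not tested.

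CCND1 (chr11:69641156-69654474, plus strand, GRCh38, GENCODE) was at 608, 418 and 675 CPM in HT1376 CT and at 56, 47.6 and 68.8 CPM in HT1376 FOXP3 KO, 9.80-fold lower (-3.29 ± 0.20, adjusted p = 6.06e-07). No library came near the other line's range. CCND2 (chr12:4269771-4305353, plus strand) was at 71.4, 26.0 and 38.1 CPM against 1.98, 0.717 and 14.2 CPM (-2.96 ± 0.73, adjusted p = 0.01), and its level depended on the number: replicate 13 of HT1376 FOXP3 KO was far above the other 2. CCND3, the remaining D-type cyclin, was at 24.9, 25.6 and 28.6 CPM against 20.6, 19.2 and 24.4 CPM (-0.29 ± 0.14, adjusted p = 0.143). Per kilobase of exon, untreated CCND1 was at 119 ± 28.0 CPM, CCND2 at 5.65 ± 2.94 and CCND3 at 4.57 ± 0.343 in HT1376 CT (SD, n = 3). In HT1376 FOXP3 KO the same levels were 12.1 ± 2.25, 0.706 ± 0.935 and 3.71 ± 0.467 CPM per kilobase, with CCND1 the highest of the 3 in both clones.

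Their partner CDK6 (chr7:92604921-92836573, minus strand) was 4.24-fold lower in HT1376 FOXP3 KO (-2.085 ± 0.16, adjusted p = 4.24e-06). CDK4, which shares 44.2% of its exon bases with TSPAN31 on the other strand, was at 52.6, 48.4 and 61.1 CPM against 56.2, 54.6 and 57.9 CPM (0.07 ± 0.12, adjusted p = 0.723). CDK2, the partner of E-type cyclins, was higher in HT1376 FOXP3 KO: 78.4, 73.5 and 79.5 CPM against 128, 106 and 131 CPM (0.67 ± 0.12, adjusted p = 0.00115). Both E-type cyclins were lower there, CCNE1 by 0.70 ± 0.13 and CCNE2 by 0.43 ± 0.11 on the log2 scale (adjusted p = 0.00174 and 0.0133).

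Inhibitors of both families differed. CDKN1A was at 98.7, 112 and 152 CPM in HT1376 CT and 35.4, 54.5 and 35.8 CPM in HT1376 FOXP3 KO (-1.525 ± 0.20, adjusted p = 0.000193). The neighbours CDKN2A (chr9:21967752-21995301) and CDKN2B (chr9:22002903-22009305), both on the minus strand, were at 41.8 ± 4.01 and 28.4 ± 6.54 CPM in HT1376 CT and at 17.9 ± 2.21 and 11.1 ± 3.01 CPM in HT1376 FOXP3 KO (SD, n = 3). These were differences of -1.21 ± 0.14 and -1.36 ± 0.23 (adjusted p = 7.48e-05 and 0.000972), and neither gene's libraries overlapped between the lines. CDKN2A shares 15.3% of its exon bases with CDKN2B-AS1 on the other strand. CDKN1B went the other way, 30.6 ± 3.61 CPM in HT1376 CT and 41.7 ± 4.81 CPM in HT1376 FOXP3 KO (0.45 ± 0.14, adjusted p = 0.0269). Per kilobase, CDKN1A was the most abundant of the 5 in both lines, at 40.4 ± 9.26 and 14 ± 3.64 CPM.

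**Figure D4:**
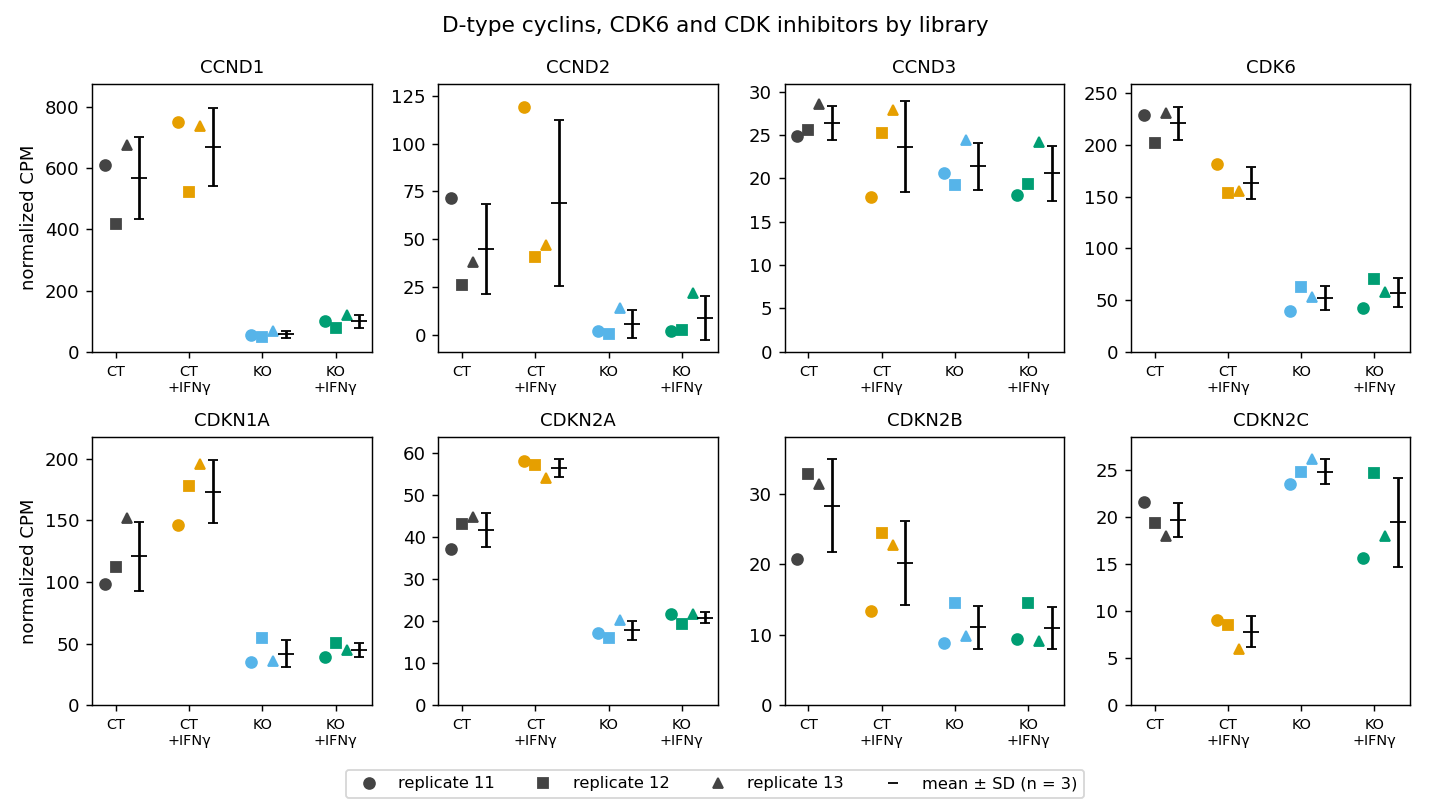
CPM of the D-type cyclins, CDK6 and 4 CDK inhibitors in each library by group (symbols mark the replicate number; bars are mean ± SD, n = 3). CCND1, CDK6 and CDKN1A are lower in every HT1376 FOXP3 KO library than in any HT1376 CT library, and CDKN2C is lowest in HT1376 CT with IFNγ, at 5.98 to 9.02 CPM.

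Of the licensing and fork members, CDC6 was called lower in HT1376 FOXP3 KO untreated (-0.32 ± 0.11, adjusted p = 0.045). MCM2 and MCM7 were at 113 ± 6.63 and 152 ± 9.48 CPM in HT1376 CT and 137 ± 4.72 and 177 ± 8.31 CPM in HT1376 FOXP3 KO (adjusted p = 0.0541 and 0.118). MCM2, whose groups did not overlap, was called higher with the block (adjusted p = 0.0288; 0.0362 with bias-adjusted deviance) and by DESeq2 (0.0288), and MCM7 was not. Of 43 further replication genes 5 were higher and 5 lower, among them RFC5 (0.84 ± 0.105, adjusted p = 0.00013), a clamp loader subunit, and TIPIN (-0.87 ± 0.21, adjusted p = 0.00956), a fork protection protein. The subunits of ribonucleotide reductase were called in opposite directions: RRM1 was higher in HT1376 FOXP3 KO (226 ± 4.48 against 309 ± 15.7 CPM, 0.46 ± 0.10, adjusted p = 0.00407) and RRM2 lower (566 ± 55.1 against 398 ± 29.8 CPM, -0.50 ± 0.11, adjusted p = 0.00556). Within mitosis, 5 of the 10 kinase, checkpoint and anaphase members were lower in HT1376 FOXP3 KO (PLK1, AURKA, BUB1, MAD2L1 and CDC20), from -0.95 ± 0.22 for PLK1 to -0.53 ± 0.15 for BUB1. Against these stood TOP2A at 0.25 ± 0.15 (adjusted p = 0.241) and FOXM1, which was higher (0.39 ± 0.11, adjusted p = 0.0172). Of 22 G2/M members, 6 were called lower, 1 higher and 15 were not called, so 31.8% were called, near the 32.1% of all genes (18.2% lower and 14% higher).

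Under IFNγ, CCND1, CCND2, CDK6 and the same 3 inhibitors were again lower in HT1376 FOXP3 KO. Of the 22 G2/M members 3 were called higher and 0 lower by edgeR (13.6%, below the share of all genes), and without the libraries numbered 12 there were 6 higher and 1 lower, MAD2L1 (-0.40 ± 0.13, adjusted p = 0.0354). In all, 15 members were called, 8 higher and 7 lower in HT1376 FOXP3 KO (28.8% of 52, where 28.9% of all 24388 genes tested were called, 13.2% higher and 15.7% lower), and the median G2/M difference was 0.29, beside 0.02 over all genes. With the block 30 were called, 19 higher and 11 lower, where 34.0% of all genes were called, 16% higher and 17.9% lower. Leaving out both libraries numbered 12 gave 24 calls, 14 higher and 10 lower, with a G2/M median of 0.20, where 32.4% of all genes were called, 14.9% higher and 17.5% lower. The count was 9 without HT1376 FOXP3 KO IFNg replicate 11 and also 9 without HT1376 FOXP3 KO IFNg replicate 13, fits for which no share of all genes is given. With 1 library left out, CCND2 was called in 5 of 6 fits, CDC6 and MCM2 in 3, KIF20A, CDKN1B and CDKN2B in 2 and CDC25C in 1, and the other 8 in all 6. Fibroblast markers again summed higher in HT1376 FOXP3 KO, 443 to 638 CPM against 24.5 to 33.9 CPM, and their part was not tested.

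The untreated and the treated libraries are separate samples, and 11 members were called in both sets (55% of the 20 called untreated and 73.3% of the 15 called under IFNγ), all in the same direction. Over all genes these shares were 67.8% and 78.3%, with 99.9% of the shared calls in the same direction, so the members shared no more calls than genes at large. The 11 members were CDK2, RRM1, FOXM1 and CDKN1B, higher in HT1376 FOXP3 KO, and CDK6, CCND1, CCND2, CDC6, CDKN1A, CDKN2A and CDKN2B, lower. CCND1 was at 748, 521 and 735 CPM against 100.3, 78.0 and 121 CPM (-2.70 ± 0.18, adjusted p = 1.37e-06), and CDKN1A at 146, 178 and 196 CPM against 38.9, 50.4 and 45.2 CPM (-1.91 ± 0.15, adjusted p = 5.23e-06). CCND2 was again led by number 13 in HT1376 FOXP3 KO, at 1.88, 2.35 and 22.0 CPM against 119, 40.6 and 47.2 CPM, and its adjusted p of 0.0145 rose to 0.0586 at most when 1 library was left out. FOXM1 was at 57.0, 35.6 and 51.6 CPM against 77.7, 84.7 and 91.3 CPM (0.85 ± 0.16, adjusted p = 0.00263) without overlap.

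In the fits without a block, CDC25C, MCM2, KIF20A and CDKN2C were called under IFNγ but not untreated, all higher in HT1376 FOXP3 KO. With the block MCM2 was also called untreated, as was KIF20A without the libraries numbered 12 (0.42 ± 0.13, adjusted p = 0.0254). CDKN2C was at 9.02, 8.54 and 5.98 CPM against 15.6, 24.7 and 18 CPM, 2.59-fold higher (1.37 ± 0.25, adjusted p = 0.00172). KIF20A was at 64.8, 26.8 and 46.4 CPM against 88.6, 57.2 and 98.8 CPM (0.86 ± 0.27, adjusted p = 0.0363), with overlapping groups. PLK1, called lower untreated, was at 48.3 ± 26.0 CPM against 45.7 ± 16.2 CPM under IFNγ (SD, n = 3; -0.05 ± 0.38, adjusted p = 0.936). MKI67 was at 1188 ± 299.8 CPM against 1477 ± 162 CPM (0.36 ± 0.16, adjusted p = 0.128), called with the block and bias-adjusted deviance (adjusted p = 0.0223).

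**Figure D5:**
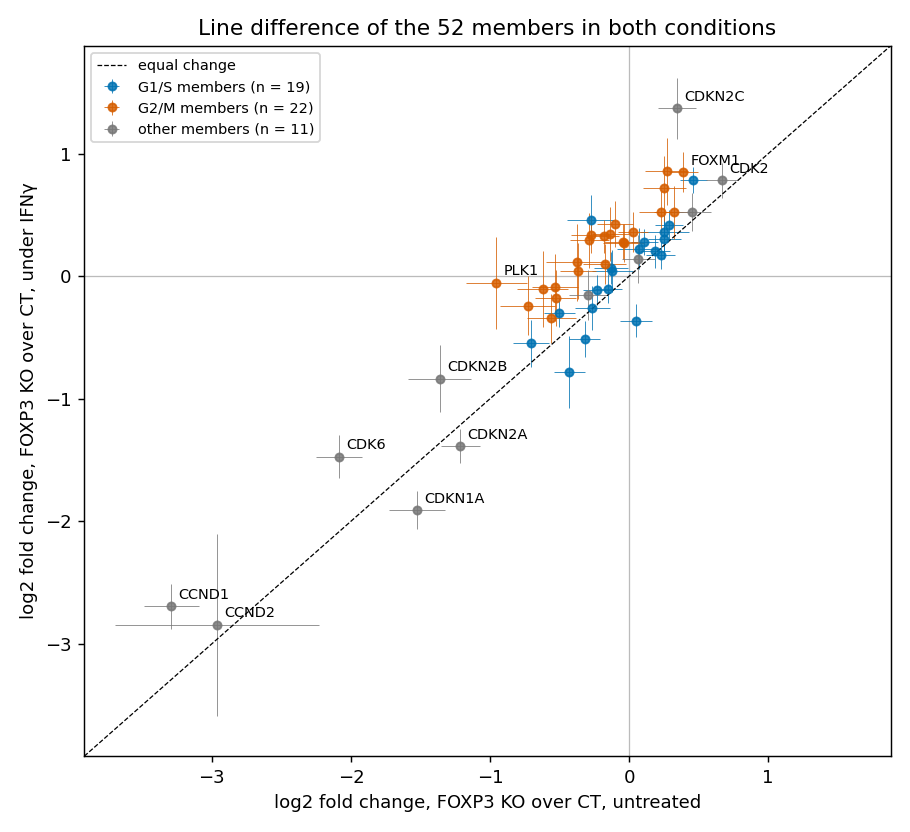
Log2 fold change of each member, HT1376 FOXP3 KO over HT1376 CT, untreated (x axis) and under IFNγ (y axis), with SE bars from the fits without a block; the dashed line marks equal difference. CCND1, CCND2, CDK6 and 3 CDK inhibitors lie far below zero on both axes, while G2/M members sit above the dashed line, with medians of -0.18 and 0.29.

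Other genes of the same pathways were read from lists that hold none of the members. With IFNγ in HT1376 CT, 3 of 25 further mitotic kinesin and spindle genes were called, all lower, with a median of -0.47, and 21 were lower with the block. Of all genes, 1.82% were called lower without the block and 9.88% with it. Among the 3 called was ANLN, the anillin scaffold of the cleavage furrow, which went from 822 ± 51.2 to 534 ± 25 CPM (-0.60 ± 0.09, adjusted p = 0.00199). Of 24 regulators of mitotic entry and exit 4 were lower, with NEK2, a centrosome kinase, going from 69.6 ± 2.44 to 35.6 ± 6.82 CPM (-0.94 ± 0.14, adjusted p = 0.00186). Of 43 further replication genes 1 was called, GINS2, a subunit of the replicative helicase (-0.52 ± 0.12, adjusted p = 0.0317), and the median of that list was -0.07. In HT1376 FOXP3 KO none of these 3 lists had a call without the block, with medians of -0.10, -0.06 and -0.06 in the same order. With the block 5, 0 and 0 genes were lower, where 1.6% of all genes were called lower.

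For the remaining lists in HT1376 CT, calls without the block are to be read beside 5.35% of all genes called (3.53% higher and 1.82% lower). Of 29 centromere and kinetochore genes, SPC24 (-0.81 ± 0.175, adjusted p = 0.0192) and OIP5 fell, and with the block 15 were lower and 1 higher. None of 18 cohesin and condensin genes was called by edgeR without the block, and 9 were lower with it. Of all genes, 9.88% were called lower and 8.67% higher with the block. In nucleotide synthesis IMPDH2, an enzyme of guanine nucleotide synthesis, fell (1 of 14, -0.40 ± 0.10, adjusted p = 0.0387). Of 16 genes of the RB, E2F and DREAM families, E2F5 rose, from 6.87 ± 1.47 to 14 ± 3.28 CPM (1.04 ± 0.235, adjusted p = 0.0244). Of 10 further CDK inhibitors and activators CDKN3, a phosphatase that acts on CDKs, fell (-0.80 ± 0.13, adjusted p = 0.00405). In HT1376 FOXP3 KO these 5 lists had no call without the block.

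Between the untreated lines, SKP2, the ubiquitin ligase subunit that marks p27 for destruction, was at 144 ± 20.6 CPM in HT1376 CT and 449.7 ± 68.8 CPM in HT1376 FOXP3 KO (1.65 ± 0.145, adjusted p = 9.45e-06), while the level of CDKN1B, which encodes p27, was also higher. WEE1, the kinase that holds CDK1 inactive, was higher there as well (119 ± 10.6 against 233 ± 1.78 CPM), and the phosphatase CDC25B, which opposes it, was lower (344 ± 14.8 against 184 ± 38.4 CPM, -0.89 ± 0.145, adjusted p = 0.00076). The mitotic kinesin and spindle list had 1 gene higher and 6 lower of 25 in HT1376 FOXP3 KO untreated, where 32.1% of all genes were called, and 2 higher and 0 lower under IFNγ with edgeR (9 higher and 0 lower with the block). Of all genes, 13.2% were called higher under IFNγ without the block and 16% with it.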

How the data were processed

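RNA from 12 HT1376 libraries was sequenced after ribosomal RNA depletion. Per the study's methods and processing notes, the authors aligned reads with STAR 2.7.11a to GRCh38, removed Mycoplasma reads with Kraken and deposited raw counts per gene from htseq-count; the strand setting is not given in the sources used here. Genes with an identifier but a blank name (2701, with 0.11% of counts) stayed in library sizes and fits and were not named. Genes with 10 or more counts in total over the libraries of a comparison were tested with edgeR 4.0.16 (quasi-likelihood, TMM, Benjamini-Hochberg over all genes tested; R 4.3.3) on the 6 libraries of each comparison, or on all 12 for the interaction. SE is the absolute log2 fold change over the square root of F. Alternatives were DESeq2 1.42.0, other size factors and filters, bias-adjusted deviance, the replicate number as a block, and each library left out. Deviations of same-numbered libraries correlated across genes at r = 0.116 to 0.559 and every such pair was over 0.1, so the numbers were taken as pairs. Differently numbered libraries reached at most r = 0.051 within a line. Between the lines the separation was less clear. There differently numbered libraries reached 0.123 untreated, where the lowest same-numbered value was 0.134. Under IFNγ they reached 0.17, above the lowest same-numbered value of 0.116. The labels do not say what a number marks, nor whether replicates were separate cultures, so p-values measure the spread between these samples, which may be technical. Counts set the precision, and PCR duplicates were not told apart from molecules. Positions and shared exon bases came from GENCODE 44 on GRCh38. Members, roles and gene lists were chosen with earlier results of these data known. Named genes were the members called in a comparison, those that define a role, and in each list the 2 called genes with the largest change per direction, with groups that do not overlap and a mean CPM of at least 1. The scripts were tested on simulated data. One gene read as a check of the IFNγ treatment is not reported here.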

Additional observations from a re-analysis of the deposited data

Results flagged for a closer look

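For 10 members the response to IFNγ differed between the lines in the fit that pairs each treated library with its own line's untreated one (adjusted p under 0.05, edgeR), while none passed the interaction test without a block. That fit called 3.12% of all 27806 genes tested, against 0.111% without a block. With the replicate block shared by both lines and bias-adjusted deviance, only CCND1 was called, where 0.827% of all genes were. The interaction, HT1376 FOXP3 KO response minus HT1376 CT response on the log2 scale, is given without a block and then with the block within each line. For the cyclins and kinases it was 0.576 and 0.58 for CDK6 (adjusted p = 0.767 and 0.00114), 0.561 and 0.558 for CCND1 (0.832 and 0.00034), 0.542 and 0.536 for CCNA2 (0.863 and 0.0155) and 0.577 and 0.541 for CCNB2 (0.688 and 0.0201). For PLK1, the mitotic kinase, it was 0.861 and 0.827 (0.885 and 0.00397), and for BIRC5, survivin, 0.485 and 0.456 (0.834 and 0.0352). Among transcription factors it was 0.70 and 0.752 for E2F2 (0.751 and 0.0041), 0.468 and 0.479 for MYBL2 (0.69 and 0.00644) and -0.446 and -0.457 for E2F7 (0.73 and 0.00621). The inhibitor CDKN2C had 0.99 and 0.982 (0.394 and 0.00626).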

How the results depend on the processing

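Calls of members depended on the fit far more than their log2 fold changes did. Over the 52 members and all alternatives, 4119 of 4472 gene values kept their direction and side of the threshold, 128 lost a call, 207 gained one, 18 moved and 0 changed sign while called. With IFNγ in HT1376 CT, 9 calls became 14 with DESeq2, 26 with no filter beyond 1 count, 35 with the replicate block, 34 with the block and bias-adjusted deviance, and 1 with an absolute log2 fold change over 1. Leaving out 1 library gave 2 to 15. In HT1376 FOXP3 KO, 0 calls became 1 with DESeq2, with no filter beyond 1 count and without the libraries numbered 12 (an alternative chosen after seeing the data), 10 with the replicate block and 6 with the block and bias-adjusted deviance; 1 library left out gave 0 to 1. Between the untreated lines, 20 became 12 with all 12 libraries in 1 fit, 6 with the log2 threshold, and 12 to 22 with 1 library left out. Under IFNγ, 15 became 23 with no filter beyond 1 count, 30 with the replicate block, 24 with the block and bias-adjusted deviance, 24 without the libraries numbered 12, 6 with the log2 threshold, and 9 to 18 with 1 library left out. The interaction went from 0 to 1 with no filter beyond 1 count, 3 with the replicate block, 1 with the block and bias-adjusted deviance, and 10 with the block within each line. The share of all genes called moved with the fit as well. With IFNγ in HT1376 CT it was 5.35% without a block, 18.6% with the replicate block and 4.93% without the libraries numbered 12. For the interaction it was 0.111% without a block and 3.12% with the block within each line. For several fits, among them those with other filters, the log2 threshold or 1 library left out, that share is not given here. The cause of these shifts was not tested.

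Median log2 fold changes over the members kept their sign under every alternative run: with 1 library left out they lay between -0.433 and -0.269 for IFNγ in HT1376 CT, -0.172 and -0.033 in HT1376 FOXP3 KO, -0.176 and -0.107 between untreated lines, 0.071 and 0.233 under IFNγ, and 0.184 and 0.396 for the interaction. CDC6, called between the untreated lines, lost its call whichever library was left out. With 3 libraries a group and 1 clone a line, clone and edit cannot be told apart.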

Other observations

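Histone genes that are transcribed during DNA replication were measured beside the members, since ribosomal RNA depletion keeps their RNAs, which lack a poly(A) tail. With IFNγ in HT1376 CT, 0 of 52 tested were called by edgeR without the block, with a median log2 fold change of -0.43 beside -0.02 over all genes. With the block 40 were lower, where 9.88% of all genes were called lower. In HT1376 FOXP3 KO the median was 0.05, with 0 called without the block and 1 higher and 1 lower with it. Between the untreated lines 7 of 53 were higher in HT1376 FOXP3 KO and 0 lower, where 14% of all genes were called higher, so the share called higher was near the background. HIST1H4C was at 190 ± 68.1 against 89.5 ± 33.0 CPM (1.09 ± 0.30, adjusted p = 0.0178). Under IFNγ 18 of 52 were higher and 0 lower, where 13.2% of all genes were called higher, and HIST1H4C was at 159.9 ± 60.6 against 46.6 ± 21.2 CPM (1.80 ± 0.33, adjusted p = 0.00193). Histone genes are near-identical copies, so the split of reads between them is uncertain.

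Genes that respond when cells enter growth differed between the untreated lines, 7 higher and 4 lower of 14 in HT1376 FOXP3 KO, where 14% of all genes were called higher and 18.2% lower. FOS, an immediate early transcription factor, was at 3.64 ± 3.20 CPM in HT1376 CT and 41.3 ± 29.7 CPM in HT1376 FOXP3 KO (3.61 ± 0.60, adjusted p = 0.000931), whereas its relative FOSL1 was at 76.0 ± 20.6 and 4.72 ± 1.18 CPM (-4.01 ± 0.25, adjusted p = 7.33e-07). Of 18 p53 target genes, 2 rose and 2 fell with IFNγ in HT1376 CT, where 3.53% of all genes were called higher and 1.82% lower. Between the untreated lines 5 had more RNA in HT1376 FOXP3 KO and 4 less, where 14% of all genes were called higher and 18.2% lower. Among them were ZMAT3 (48.2 ± 11.7 against 291 ± 92.6 CPM) and TNFRSF10B (87.5 ± 9.88 against 21.2 ± 1.74 CPM), a death receptor.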
